A study of Mus musculus with 8 samples.

Results

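The cell cycle module comprised 52 genes whose products start, drive or carry out cell division, from the D cyclins of G1 to the proteins that cut the cell apart at cytokinesis. Its members were chosen by name from the 55385 genes of the count table. All 52 were found there, each in 1 row, and all 52 were among the 15314 genes that passed the filter on low counts. Their expression was measured by RNA-seq in 8 left ventricle libraries, all from C57BL6 males, of which 4 came from Mst1 transgene carriers (Mst1-TG) and 4 from littermates without the transgene (WT). The kinase Mst1 belongs to the Hippo pathway and is encoded in the mouse by Stk4. The transgene is driven by the promoter of alpha-myosin heavy chain, so that cardiomyocytes are the cells that overexpress it, and carriers develop dilated cardiomyopathy. The design text gives the age as 3 weeks, whereas the extraction protocol in the labels gives 3 months. No drug or other allele is recorded for either group. Whether each library came from its own animal is not stated sample by sample, so a p-value here reflects only how these libraries vary.

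A dividing cell passes from G1, where D cyclins with Cdk4 and Cdk6 release E2F transcription factors from the retinoblastoma protein, into S phase, where MCM helicases and the sliding clamp PCNA copy the DNA. Cyclins A and B with Cdk1 then bring the cell into mitosis, and the genes used there are switched on late in the cycle by FOXM1 and B-MYB acting with the MuvB complex. In the mouse heart, cardiomyocytes largely leave the cycle in the first weeks after birth, while fibroblasts, endothelial cells and macrophages can still divide. In many organs the Hippo pathway is known to restrain proliferation by holding the coactivators YAP and TAZ out of the nucleus.

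The libraries held 21193536 to 23809256 estimated counts. Stk4 reached 1449 to 1747 CPM (counts scaled to a common library size with TMM factors) in the Mst1-TG libraries, against 25.2 to 29.6 CPM in the WT libraries, which fits the labels. Mitochondrially encoded genes took 12.9 to 14.4% of counts in Mst1-TG and 21.4 to 23.8% in WT. The 8 cardiomyocyte markers summed to 35111 to 44859 CPM in Mst1-TG and 50767 to 60348 CPM in WT, so the tissue label holds in both groups. Of all genes tested, 42.3% differed between the groups at a Benjamini-Hochberg adjusted p under 0.05 in edgeR's quasi-likelihood test, 21.2% being higher in Mst1-TG and 21.1% lower. Counts of members are read against these shares.

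Members that rose in Mst1-TG hearts were mostly genes of mitosis, which are expressed at low levels in this tissue. Of the 52 members, 20 rose in Mst1-TG (38.5%, against 21.2% of all genes), 1 fell, and 31 did not pass the threshold. The gene that fell was Cenpf, which encodes a large kinetochore protein. The members that rose did so by a log2 fold change (Mst1-TG over WT throughout) of 0.32 to 1.78, and 10 of them at least doubled. The median log2 fold change was 0.55 over the 52 members and 0.01 over all genes tested. Whatever their p, 47 members had a positive fold change and 5 a negative one, and 28 had an unadjusted p under 0.05. All 4 Mst1-TG libraries lay above all 4 WT libraries for 11 of the 52 members, a share near the 20.2% of all genes tested. They lay below them for 1 member, against 20.1% of all genes tested. In bulk tissue, fewer cells of a type and less RNA per cell cannot be told apart, and neither can more dividing cells and more RNA of these genes per cell.

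**Figure D1:**
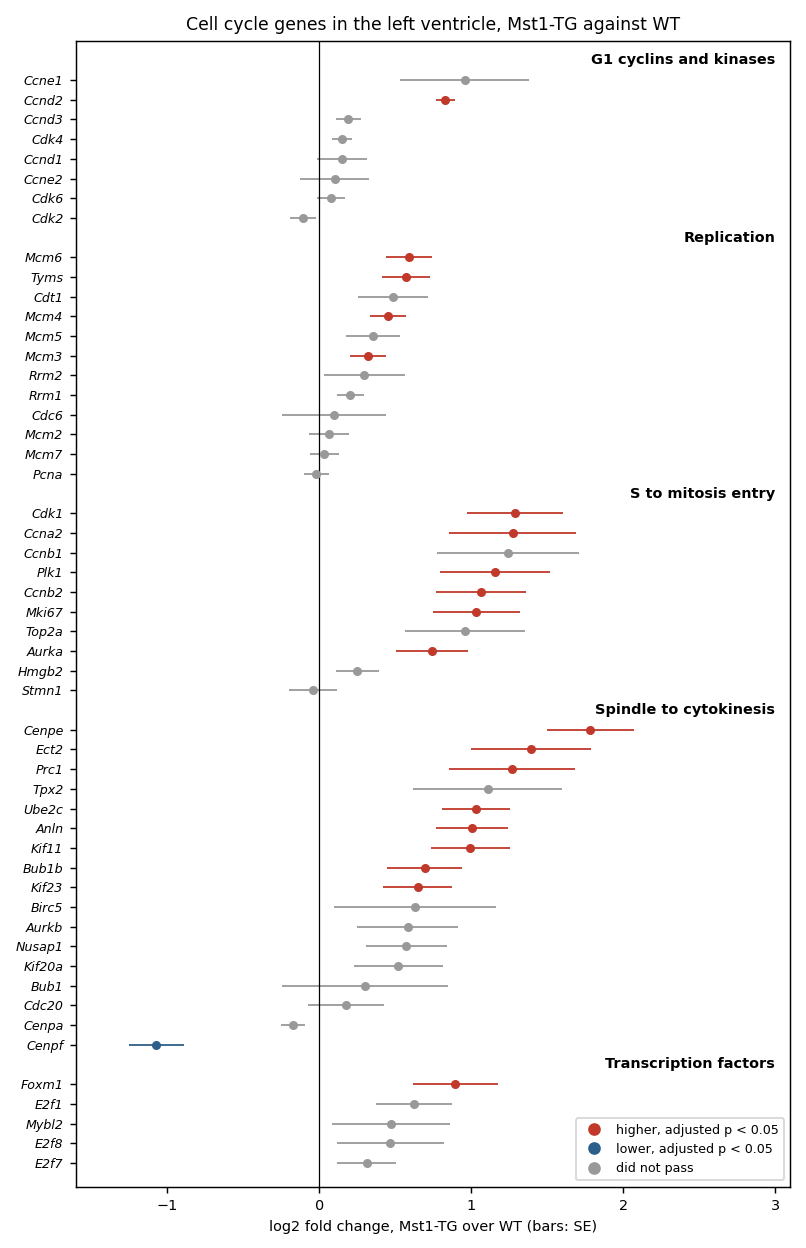
Log2 fold change (Mst1-TG over WT, horizontal axis) of each of the 52 cell cycle genes, grouped by role. Points are edgeR estimates, bars are ± 1 standard error, and colour marks whether the adjusted p was under 0.05. The 20 genes that rose lie between 0.32 and 1.78 and sit mainly in the 2 mitotic groups, while Cenpf, at -1.07, is the only gene that fell.

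The count of members that rose depended on single libraries. It was 12 of 52 (23.1%) without Mst1-TG 1, against 20.1% of all genes, and 12 of 52 without WT 1, against 18.6% of all genes, both near the share of all genes. With library totals as the only scaling, under which 7409 genes were higher and 1592 lower, it was 39, against 48.4% of all genes. It was 13 without WT 2 (18.6% of all genes) and 27 without WT 4 (20% of all genes). The Mst1-TG 1 library had the highest value of its group in 43 of the 52 members, and the WT 4 library had the highest value of its group in 37. When both of these libraries were left out, a step chosen after seeing the data, 23 members rose (44.2%, against 19.9% of all genes), among them 19 of the 20. Ccnd2, Mcm4, Mcm6, Tyms, Ccnb2, Cdk1, Mki67, Ube2c, Cenpe, Kif11, Anln and Ect2 rose in each of the 8 fits that left out 1 library, and Cenpf fell in all 8.

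**Figure D2:**
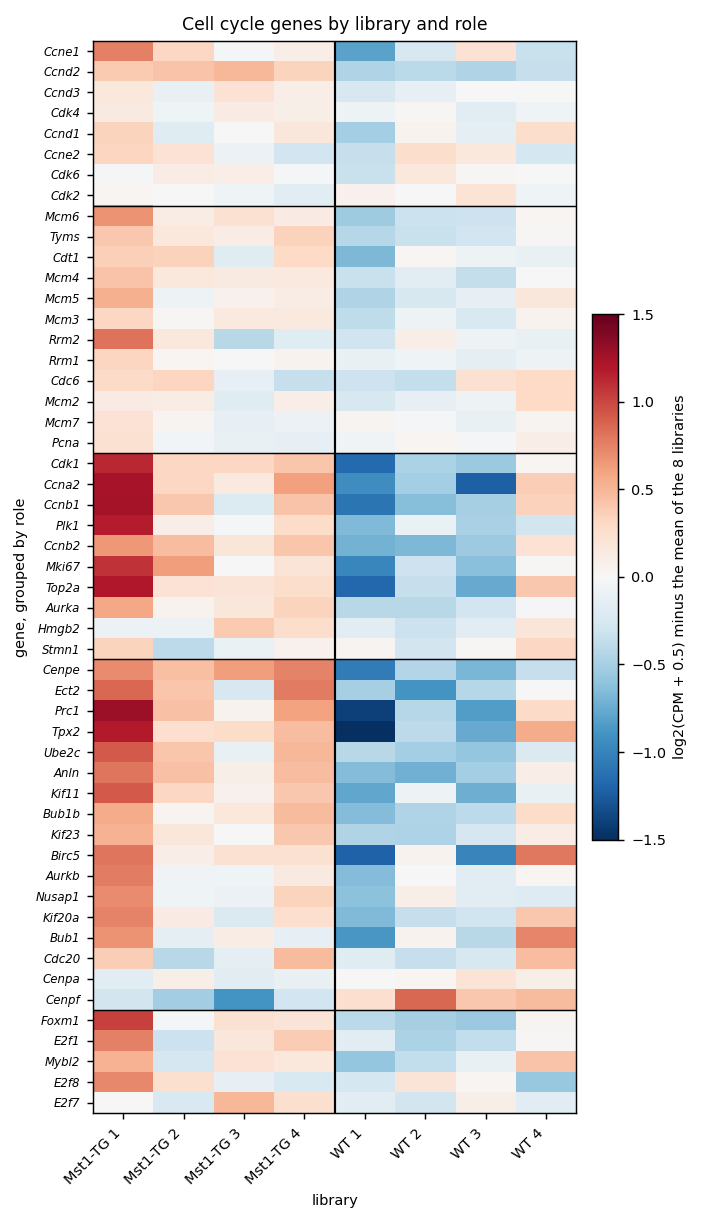
Heat map of the 52 genes (rows, grouped by role) in the 8 libraries (columns, Mst1-TG 1 to 4 left of WT 1 to 4). Colour gives log2(CPM + 0.5) minus the mean of the 8 libraries for that gene. The Mst1-TG 1 column is the highest of its group in 43 of 52 rows and the WT 4 column the highest of its group in 37 of 52.

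Levels differed widely within the module. Set per kilobase of mean coding transcript, the highest WT levels were those of Ccnd3 (77.9 CPM per kilobase), Ccnd2 (52.3), Cdk4 (46.0) and Cenpa (37.1), and the lowest was that of Cenpe (0.149 CPM per kilobase). In Mst1-TG the level of Ccnd2 was 93.0 CPM per kilobase and that of Ccnd3 was 88.9, so the order of this pair was the other way round, a difference in order that was not tested. Of the 52 members, 34 had a WT mean under 5 CPM, and the standard error of a log2 fold change had a median of 0.242 over the members and of 0.111 over all genes. The smallest sum of counts over the 4 WT libraries for any member was 42.

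The promoters of the members are shown because they carry the sites through which the cell cycle program is known to be timed. RefSeq start sites on GRCm38.p6 gave a window of 250 bases before to 50 bases after the start for 42 of the 52 members, of which 22 belong to the 2 mitotic groups, 11 to the replication group and 5 to the G1 group. The letters searched on both strands were CCAAT (the box bound by NF-Y), TTTGAA (the letters of the cell cycle homology region, CHR, which MuvB complexes bind) and TTTGGCGC, TTTCGCGC or TTTCCCGC (forms of the E2F site). CCAAT stood in the windows of 19 of 22 mitotic genes (86.4%), 8 of 11 replication genes (72.7%), 2 of 5 G1 genes and 42.3% of the 11327 tested genes with a window. TTTGAA stood in 17 of 22 mitotic genes (77.3%), in 1 of 11 replication genes (9.09%), in 0 of 5 G1 genes and in 14.5% of tested genes. The E2F letters stood in 1 of 22 mitotic genes, in 6 of 11 replication genes (54.5%), in 1 of 5 G1 genes and in 3.81% of tested genes. GGAATG, the letters of the TEAD site through which YAP and TAZ act, stood in 5 of 42 members (11.9%) and in 14.8% of tested genes. A match describes these letters only and is not a bound site. TTTGGCGC and the reverse of TTTCGCGC can overlap, and they do so once in the window of Mcm6.

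The 150 bases before the start are printed 5′ to 3′ on the gene's own strand for a replication gene that rose (Mcm6), for 3 mitotic genes that rose (Cdk1, Ube2c, Kif11) and for the mitotic gene that fell (Cenpf). Capitals mark the CCAAT box, the CHR letters, the E2F letters and the reverse complements of each. On the printed strand a reversed CCAAT box reads ATTGG and a reversed CHR reads TTCAAA.
Mcm6 (chr1:128359706-128359855, minus strand): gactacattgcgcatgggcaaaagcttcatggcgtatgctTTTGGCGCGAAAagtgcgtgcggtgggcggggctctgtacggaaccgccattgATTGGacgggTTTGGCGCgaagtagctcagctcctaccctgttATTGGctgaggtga
Cdk1 (chr10:69352913-69353062, minus strand): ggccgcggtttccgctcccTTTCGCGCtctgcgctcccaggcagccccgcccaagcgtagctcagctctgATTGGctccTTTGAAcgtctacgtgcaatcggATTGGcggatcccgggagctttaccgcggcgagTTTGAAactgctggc
Ube2c (chr2:164769779-164769928, plus strand): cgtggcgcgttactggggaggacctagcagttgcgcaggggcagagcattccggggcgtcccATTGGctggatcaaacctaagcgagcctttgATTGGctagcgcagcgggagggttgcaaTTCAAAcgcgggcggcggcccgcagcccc
Kif11 (chr19:37376232-37376381, plus strand): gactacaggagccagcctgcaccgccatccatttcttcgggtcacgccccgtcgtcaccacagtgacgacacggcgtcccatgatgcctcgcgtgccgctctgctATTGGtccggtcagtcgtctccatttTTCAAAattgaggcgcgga
Cenpf (chr1:189688087-189688236, minus strand): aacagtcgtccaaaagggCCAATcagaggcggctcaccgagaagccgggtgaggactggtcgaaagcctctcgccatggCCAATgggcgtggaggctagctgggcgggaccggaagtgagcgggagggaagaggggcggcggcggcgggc
The Cenpf promoter carried 2 CCAAT boxes in these 150 bases, as did those of Cdk1 and Ube2c, and its TTTGAA began at base 3 after the start, outside the printed stretch. The genes printed are examples. Of the 16 members called higher that had a window, 11 held both CCAAT and TTTGAA. The window of Cenpe held CCAAT without TTTGAA, and that of Anln TTTGAA without CCAAT.

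Among the G1 cyclins and kinases, which commit a cell to division, 1 of 8 members rose and none fell. That compares with 21.2% of all genes higher and 21.1% lower, and the median log2 fold change of the 8 was 0.15. The gene that rose was Ccnd2, cyclin D2, a partner of Cdk4 and Cdk6 (chr6:127125162-127152193, minus strand, GRCm38). It had 204, 210, 220 and 197 CPM in Mst1-TG hearts, against 113, 118, 114 and 122 CPM in WT hearts. Every Mst1-TG value lay above every WT value, and the spread within each group was small. Its log2 fold change was 0.83 ± 0.06 (SE), a 1.78-fold difference, with an adjusted p of 2.6e-07 in edgeR, the smallest of the module. Ccnd2 shares its locus with genes annotated on the other strand, Gm43126 and 9330179D12Rik, and the strand setting of the authors' counting is not given in the sources used here.

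The other D cyclins did not pass the threshold. Ccnd1, cyclin D1, had 127, 88.3, 101 and 113 CPM in Mst1-TG, against 70.3, 104, 91.9 and 121 CPM in WT, and the groups overlapped almost wholly (log2 fold change 0.15 ± 0.16, adjusted p 0.51). Ccnd3, cyclin D3, had 96.9, 80.3, 101 and 92.8 CPM in Mst1-TG, against 73.0, 79.4, 85.9 and 86.4 CPM in WT, with 1 Mst1-TG library inside the WT range (0.19 ± 0.08, adjusted p 0.073). Whether the change of Ccnd2 differed from that of the other D cyclins was not tested. Their shared catalytic partner Cdk4 had 65.4, 56.9, 64.9 and 62.9 CPM in Mst1-TG, against 56.0, 60.1, 52.7 and 56.6 CPM in WT, with overlap (0.15 ± 0.07, adjusted p 0.088). Without the Mst1-TG 2 library, Ccnd3 (0.25) and Cdk4 (0.19) passed.

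Cyclin E, with Cdk2, acts at the entry into S phase. Ccne1 averaged 1.01 CPM in Mst1-TG and 0.516 CPM in WT (log2 fold change 0.96 ± 0.43, adjusted p 0.089), a low level that leaves a wide error. It passed without WT 3 (1.38). Ccne2 (0.10 ± 0.23), Cdk2 (-0.11 ± 0.09) and Cdk6 (0.08 ± 0.09) had adjusted p-values in edgeR of 0.35 to 0.75.

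Among the 12 genes of replication and nucleotide supply, 4 rose and none fell, against 21.2% and 21.1% of all genes. The median log2 fold change of the 12 was 0.31. The 4 were Mcm3, Mcm4 and Mcm6, subunits of the replicative helicase, and Tyms, thymidylate synthase, which makes the thymine nucleotide. Mcm6 (chr1:128331590-128359664, minus strand) had 28.7, 19.4, 21.1 and 19.5 CPM in Mst1-TG, against 12.2, 14.2, 14.3 and 18.3 CPM in WT. The groups did not overlap, with Mst1-TG 1 well above its group and WT 4 close to the lowest Mst1-TG library. The log2 fold change was 0.59 ± 0.15, with an adjusted p of 0.0071 in edgeR.

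Mcm4 had 14.0, 11.6, 11.3 and 11.4 CPM in Mst1-TG, against 8.07, 9.10, 7.90 and 10.2 CPM in WT, again with no overlap (log2 fold change 0.45 ± 0.12, adjusted p 0.0069). Tyms had 5.59, 4.66, 4.48 and 5.35 CPM in Mst1-TG, against 2.93, 3.15, 3.28 and 4.18 CPM in WT, with no overlap (0.57 ± 0.16, adjusted p 0.010). Mcm3 passed narrowly (0.32 ± 0.12, adjusted p 0.041), and its call was lost in 6 of the 8 fits that left out 1 library, the exceptions being those without Mst1-TG 2 and WT 4. The 6 MCM subunits work as 1 ring, yet Mcm2 (0.07 ± 0.13), Mcm5 (0.35 ± 0.18) and Mcm7 (0.03 ± 0.10) did not pass, and Mcm5 passed without WT 4 (0.49). Mcm7 carries the microRNAs Mir25, Mir93 and Mir106b inside its locus.

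Pcna, the sliding clamp that is widely used as a proliferation marker, had 45.7, 38.0, 36.1 and 35.8 CPM in Mst1-TG, against 37.8, 40.0, 38.2 and 41.9 CPM in WT. The groups overlapped, and its log2 fold change was -0.02 ± 0.08 (adjusted p 0.88), among the most precise of the module. Scaling by library totals alone moved the median log2 fold change of all genes to 0.29 and the value of Pcna to 0.26, so relative to all genes it stayed close to 0. The ribonucleotide reductase subunits, which supply deoxynucleotides, did not pass. Rrm1 had a log2 fold change of 0.21 ± 0.09 with no overlap between the groups (adjusted p 0.081), and Rrm2 one of 0.30 ± 0.27. The licensing factors that load the helicase, Cdc6 (0.10 ± 0.34) and Cdt1 (0.49 ± 0.23), also did not pass, and Cdt1 passed without Mst1-TG 3 (0.62).

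**Figure D3:**
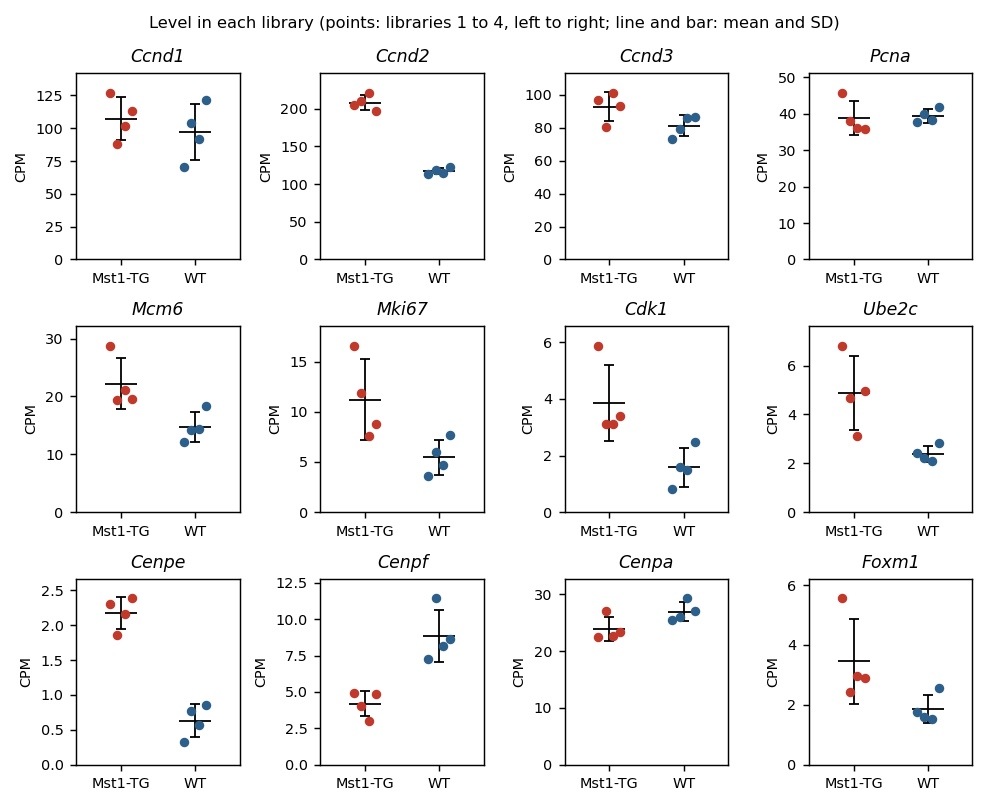
CPM of 12 cell cycle genes in each library, with Mst1-TG left of WT in every panel, each vertical axis starting at 0. Points are libraries 1 to 4 from left to right, with the group mean and its SD over 4 libraries. Ccnd2, Mcm6, Cdk1, Ube2c and Cenpe separate the groups with Mst1-TG above, Cenpf separates them with Mst1-TG below, and Ccnd1, Ccnd3 and Pcna overlap.

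Among the 10 genes that act from S phase to mitotic entry, 6 rose and none fell, against 21.2% and 21.1% of all genes. The median log2 fold change of the 10 was 1.05. The count of rises was 3 without Mst1-TG 1 or WT 1 (20.1% and 18.6% of all genes). It was 4 without WT 2 or WT 3 (18.6% and 17.9%), and 0 against 1.5-fold in glmTreat (5.84%). Those that rose were Cdk1, its cyclins Ccna2 and Ccnb2, the mitotic kinases Plk1 and Aurka, and Mki67, which encodes the chromosome surface protein read by the Ki-67 stain. Cdk1 (chr10:69335146-69352938, minus strand) had 5.88, 3.11, 3.1 and 3.39 CPM in Mst1-TG, against 0.803, 1.6, 1.47 and 2.47 CPM in WT. The groups did not overlap, and the highest value in each came from Mst1-TG 1 and WT 4. The log2 fold change was 1.29 ± 0.31, a 2.44-fold difference (adjusted p 0.0053 in edgeR, from 374 counts over the Mst1-TG libraries and 128 over the WT libraries).

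Mki67 had 16.6, 11.9, 7.58 and 8.74 CPM in Mst1-TG, against 3.59, 6.00, 4.71 and 7.66 CPM in WT, so that WT 4 lay just above the lowest Mst1-TG library (log2 fold change 1.03 ± 0.29, adjusted p 0.015). Ccnb2, a B-type cyclin, had 2.84, 2.42, 1.92 and 2.34 CPM in Mst1-TG, against 0.803, 0.827, 0.951 and 1.97 CPM in WT, with WT 4 again in the Mst1-TG range (1.06 ± 0.30, adjusted p 0.011). Ccna2 (1.27 ± 0.42, adjusted p 0.033), Plk1 (1.16 ± 0.36, 0.021) and Aurka (0.74 ± 0.24, 0.022) rose with larger p-values. Each of these 3 lost its call without Mst1-TG 1, with a log2 fold change of 0.97 for Ccna2 and 0.70 for Plk1, and in other such fits without 1 library.

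Ccnb1, the main mitotic cyclin, had 4.22, 2.12, 1.22 and 2.17 CPM in Mst1-TG, against 0.425, 0.775, 0.904 and 2.02 CPM in WT. Its log2 fold change of 1.24 ± 0.47 was as large as those of the genes that passed, yet the adjusted p was 0.052. Top2a, the topoisomerase that untangles sister chromatids, had 14.1, 6.91, 6.77 and 7.15 CPM in Mst1-TG, against 2.31, 4.50, 3.28 and 7.96 CPM in WT, with WT 4 above 3 of the Mst1-TG libraries (0.96 ± 0.39, adjusted p 0.081). Without WT 4 both passed, at 1.79 for Ccnb1 and 1.38 for Top2a. Hmgb2 (0.25 ± 0.14), a chromatin protein, and Stmn1 (-0.04 ± 0.16), a regulator of microtubules that is also expressed outside mitosis, did not pass.

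Among the 17 genes of the spindle, kinetochore, checkpoint, anaphase and cytokinesis, 8 rose, 1 fell and 8 did not pass. That compares with 21.2% of all genes higher and 21.1% lower, and the median log2 fold change of the 17 was 0.65. The count of rises was 5 without Mst1-TG 1, Mst1-TG 4, WT 1, WT 2 or WT 3, each left out alone. The shares of all genes in those fits were 20.1%, 18.7%, 18.6%, 18.6% and 17.9%. Without WT 4 the count was 11, against 20% of all genes. The largest rise of the module was that of Cenpe, the kinesin that carries chromosomes to the spindle equator (chr3:135212537-135273611, plus strand). It had 2.31, 1.86, 2.16 and 2.38 CPM in Mst1-TG, against 0.330, 0.775, 0.571 and 0.857 CPM in WT. The groups stood well apart, at a log2 fold change of 1.78 ± 0.29 or 3.44-fold (adjusted p 0.00023), although from only 210 counts over the Mst1-TG libraries and 51 over the WT libraries. With Ccnd2 it was the only member that rose beyond 1.5-fold in edgeR's glmTreat test, which called 5.84% of all genes higher.

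Ube2c, the ubiquitin-conjugating enzyme of the anaphase-promoting complex (chr2:164769898-164778822, plus strand), had 6.81, 4.66, 3.1 and 4.98 CPM in Mst1-TG, against 2.41, 2.22, 2.09 and 2.82 CPM in WT. The groups did not overlap (log2 fold change 1.03 ± 0.22, adjusted p 0.0023). Ube2c overlaps the muscle troponin gene Tnnc2 on the other strand. The cytokinesis genes Anln, an actin-binding scaffold of the cleavage furrow (1.01 ± 0.23, adjusted p 0.0036), and Ect2, an activator of the GTPase RhoA (1.39 ± 0.39, 0.012), rose, as did Kif11, the motor that separates spindle poles (0.99 ± 0.26, 0.0077).

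Bub1b, a checkpoint kinase relative (0.69 ± 0.25, adjusted p 0.038), Kif23, a motor of the central spindle (0.65 ± 0.22, 0.033), and Prc1, which bundles the central spindle's microtubules (1.27 ± 0.41, 0.034), passed narrowly in edgeR. Bub1b and Kif23 each lost their call in 5 of the 8 fits without 1 library (those without Mst1-TG 1, Mst1-TG 4, WT 1, WT 2 and WT 3), and Prc1 in 6. Tpx2, a spindle assembly factor, had a large but poorly determined change (1.11 ± 0.49, adjusted p 0.10). Birc5 (0.63 ± 0.53) and Aurkb (0.58 ± 0.33), partners in the chromosomal passenger complex, Nusap1 (0.57 ± 0.27), Kif20a (0.52 ± 0.30), the checkpoint kinase Bub1 (0.30 ± 0.55) and the anaphase activator Cdc20 (0.18 ± 0.25) did not pass. Without WT 4, Tpx2 (1.75), Birc5 (1.36) and Kif20a (0.84) passed.

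Cenpf ran against the rest. Its product is a kinetochore protein of dividing cells that also binds microtubules at the nuclear envelope and centrosome, and in mice its deletion in cardiomyocytes is known to cause dilated cardiomyopathy. Cenpf (chr1:189640606-189688086, minus strand) had 4.90, 4.06, 3.02 and 4.85 CPM in Mst1-TG, against 7.27, 11.4, 8.13 and 8.62 CPM in WT. Every Mst1-TG library lay below every WT library, at a log2 fold change of -1.07 ± 0.18 (adjusted p 0.00032), and the fall was called in all 18 alternative settings tried as well. Its summed counts were 405 in Mst1-TG and 717 in WT, far more than those of Cenpe. Gm37239 is annotated on the strand opposite to Cenpf. Cenpa, the centromeric histone, had a log2 fold change of -0.17 ± 0.08 (adjusted p 0.10) from means of 24 CPM in Mst1-TG and 27 CPM in WT, and it passed as lower without Mst1-TG 2 (-0.24). Per kilobase it was the most abundant mitotic member in WT.

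Taking both mitotic groups as 1 set of 27 genes, 14 rose, 1 fell and 12 did not pass, with a median log2 fold change of 0.96. Of all genes tested, 21.2% rose and 21.1% fell. The count of rises was 8 without Mst1-TG 1 or WT 1 (20.1% and 18.6% of all genes) and 9 without WT 2 or WT 3 (18.6% and 17.9%). It was 10 without Mst1-TG 4 (18.7%), 13 without Mst1-TG 2 (20.2%), 15 without Mst1-TG 3 (18.7%) and 19 without WT 4 (20%). Without the pair Mst1-TG 1 and WT 4 it was 17 (19.9%), and against 1.5-fold in glmTreat it was 1 (5.84%). The summed level of the 27 genes was 187, 131, 122 and 145 CPM in Mst1-TG, against 91.1, 106, 103 and 142 CPM in WT. The means were 146 ± 28.6 CPM in Mst1-TG and 111 ± 22.1 CPM in WT (SD, n = 4 each). The WT 4 library reached the level of the Mst1-TG libraries and lay above 2 of them. Mst1-TG 1 had the highest value of its group in 23 of the 27 genes, and WT 4 in 22.

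Fibroblast markers were also higher in Mst1-TG. All 8 markers on the list rose in Mst1-TG (median log2 fold change 1.17), and they summed to 8613, 6187, 7385 and 7374 CPM in Mst1-TG, against 2580, 3162, 2747 and 3437 CPM in WT. The highest sum in each group was that of Mst1-TG 1 and WT 4, as for the mitotic, replication and G1 sums. Below the top library the order differed, the lowest Mst1-TG library being Mst1-TG 2 for the fibroblast sum and Mst1-TG 3 for the mitotic sum. Not every marker peaked in these libraries: in Mst1-TG, Pdgfra was highest in Mst1-TG 4 and Tcf21 and Postn in Mst1-TG 3. For the fibroblast sum, however, the groups did not overlap, whereas for the mitotic sum, in which abundant genes weigh most, they did. Across all genes tested, 21.2% rose and 21.1% fell, the shares against which these marker counts are read. Of the 8 cardiomyocyte markers 6 fell, and of the 8 endothelial markers 3 fell. The endothelial sums were 1291 to 1871 CPM in Mst1-TG and 1719 to 2176 CPM in WT. None of 8 macrophage markers passed (sums of 317 to 437 CPM in Mst1-TG and 308 to 418 CPM in WT). The 6 erythroid genes, none of which passed, summed to 5884 ± 1693 CPM in Mst1-TG and 9745 ± 3778 CPM in WT (SD, n = 4 each). Of 7 mural markers 1 rose and 3 fell, and of 4 B cell markers 2 fell. None passed of 3 tested neutrophil, 2 tested Schwann and 2 tested T and NK cell markers, and 5 of the 7 T and NK cell markers were too low to test. The Schwann sum, like the fibroblast sum, was highest in Mst1-TG 1 (12.3 CPM) and WT 4 (10.4 CPM). WT 4 was also the highest WT library for the endothelial, macrophage, mural, B cell, and T and NK cell sums. By contrast, Mst1-TG 1 was the lowest of its group for the endothelial, B cell and neutrophil sums, and WT 4 for the cardiomyocyte sum. The part of these cell types in the mitotic result was not tested.

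**Figure D4:**
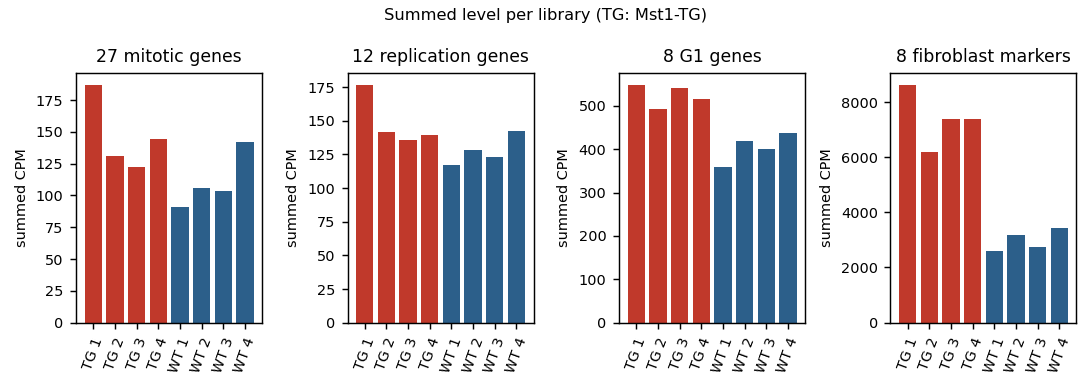
Summed CPM per library of the 27 mitotic genes, the 12 replication genes, the 8 G1 genes and the 8 fibroblast markers, Mst1-TG left of WT, with each axis starting at 0. Each bar is 1 library, numbered 1 to 4 within its group. Mst1-TG 1 and WT 4 are the highest of their groups in all 4 panels. The groups overlap for the mitotic and replication sums but not for the G1 and fibroblast sums. The G1 sums averaged 525 CPM in Mst1-TG and 405 CPM in WT. Of the 8 G1 genes, only Ccnd2 (means of 208 CPM in Mst1-TG and 117 CPM in WT) had groups that did not overlap.

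Of the 5 transcription factors of the program, Foxm1 rose and none fell, against 21.2% and 21.1% of all genes. The median log2 fold change of the 5 was 0.47. Foxm1, which drives genes of G2 and mitosis (chr6:128362967-128376146, plus strand), had 5.55, 2.42, 2.98 and 2.89 CPM in Mst1-TG, against 1.75, 1.6, 1.52 and 2.57 CPM in WT. The groups overlapped by 1 library on each side (0.90 ± 0.28, adjusted p 0.020), and without Mst1-TG 1 the log2 fold change was 0.57 and the call was lost. It was also lost without WT 1, WT 2 or WT 3. E2f1, an activator of S-phase genes, had 5.27, 2.25, 3.34 and 3.97 CPM in Mst1-TG, against 2.55, 1.96, 2.14 and 2.97 CPM in WT (0.62 ± 0.25, adjusted p 0.058), and it passed without Mst1-TG 2 (0.80) or WT 4 (0.74).

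E2f7, a repressor of the same family, had 3.36, 2.81, 4.93 and 4.06 CPM in Mst1-TG, against 2.93, 2.69, 3.61 and 2.97 CPM in WT, with wide overlap (0.31 ± 0.19, adjusted p 0.22). E2f8, its closest relative (0.47 ± 0.36), and Mybl2, which encodes B-MYB (0.47 ± 0.39), did not pass either.

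Genes of the same pathways outside the module were read from 7 lists. In the list of 49 tested mitotic genes, 15 rose and 2 fell, against 21.2% and 21.1% of all genes. The median log2 fold change of this list was 0.79, beside 0.96 for the 27 mitotic members. Iqgap3, a scaffold linked to proliferation, had 6.93, 5.87, 4.85 and 7.44 CPM in Mst1-TG, against 0.425, 1.24, 1.52 and 2.52 CPM in WT, with the groups well apart (2.14 ± 0.36, adjusted p 0.00059). Kif20b, a kinesin of cytokinesis, had 3.12, 1.99, 2.16 and 1.30 CPM in Mst1-TG, against 0.567, 1.09, 0.713 and 0.302 CPM in WT (1.68 ± 0.37, adjusted p 0.0023), and Smc4, a condensin subunit, averaged 26.7 CPM in Mst1-TG and 18.8 CPM in WT (0.51 ± 0.11, adjusted p 0.0017). Among the other genes that rose were Knl1 (1.91), Cks2 (1.6), Kif2c (1.5) and Kif18a (1.43). The 2 that fell both guard sister chromatid cohesion. Pttg1, securin, had 26.6, 31.6, 25.6 and 27.3 CPM in Mst1-TG, against 42.1, 46.8, 43.1 and 41.4 CPM in WT, with no overlap (-0.64 ± 0.08, adjusted p 1.9e-05), and Sgo2a, shugoshin 2, averaged 2.73 CPM in Mst1-TG and 4.24 CPM in WT (-0.63 ± 0.19). The list had 24 genes higher without WT 4, against 20% of all genes. It had 10 of 49 without Mst1-TG 1, Mst1-TG 4 or WT 1, each left out alone. That was near the shares of all genes in those fits (20.1%, 18.7% and 18.6%).

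Among 38 tested genes of origin licensing and the replication fork, 7 rose and 6 fell, with a median log2 fold change of 0.03. Both shares were below those of all genes (21.2% higher and 21.1% lower). Gmnn, geminin, which blocks a second round of licensing, fell to 7.22, 8.03, 6.36 and 7.65 CPM in Mst1-TG, against 16.7, 14.3, 11.2 and 13.8 CPM in WT (-0.94 ± 0.13, adjusted p 6.4e-05). Dut, which keeps uracil out of DNA, also fell (means of 12.3 CPM in Mst1-TG and 19.6 CPM in WT, -0.66 ± 0.09), as did the 3 subunits of the single-strand binding protein, Rpa1 (-0.18), Rpa2 (-0.29) and Rpa3 (-0.40). Those that rose included Gins3 of the helicase complex (0.81 ± 0.20) and both Chaf1a (0.61 ± 0.16) and Chaf1b (1.19 ± 0.37) of the chromatin assembly factor. Without WT 1, 4 genes of this list rose and 3 fell, against 18.6% and 18.7% of all genes. Without Mst1-TG 4 or WT 4, 3 fell, against 19.1% and 19.9% of all genes.

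Of 9 tested CDK inhibitors and pocket proteins, 3 rose and 1 fell, a share near the 42.3% of all genes that differed. Cdkn2b, p15, an inhibitor of Cdk4 and Cdk6, had 2.47, 1.64, 2.16 and 1.51 CPM in Mst1-TG, against 0.378, 0.414, 0.333 and 0.655 CPM in WT, the groups standing far apart (2.12 ± 0.31, adjusted p 9e-05). Cdkn2d, p19, of the same family, averaged 20.2 CPM in Mst1-TG and 15.7 CPM in WT (0.36 ± 0.11, adjusted p 0.015). Cdkn1a, p21, averaged 122 CPM in Mst1-TG and 89.7 CPM in WT (0.44 ± 0.15, adjusted p 0.041), and its call was lost in 6 of the 8 fits without 1 library (all but those without Mst1-TG 2 and WT 3). Cdkn1c, p57, had 33.2, 26.6, 35.1 and 43.4 CPM in Mst1-TG, against 64.0, 44.1, 56.3 and 63.1 CPM in WT (-0.72 ± 0.15, adjusted p 0.0037).

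Of 13 E2F, DP and MuvB genes, 3 rose and 2 fell, a share near the 42.3% of all genes that differed. E2f3, an activator, had 21.8, 22.0, 21.7 and 19.5 CPM in Mst1-TG, against 13.3, 15.4, 14.3 and 14.3 CPM in WT (0.57 ± 0.08, adjusted p 7.8e-05). Mybl1, A-MYB, a relative of Mybl2, averaged 1.98 CPM in Mst1-TG and 0.742 CPM in WT (1.42 ± 0.29, adjusted p 0.0015). E2f5 rose as well (0.47 ± 0.14), though not without Mst1-TG 3 (0.40). The repressor E2f6 (-0.45 ± 0.07) and Tfdp2 (-0.38 ± 0.13), a dimer partner of E2F proteins, fell, the call of Tfdp2 being lost without Mst1-TG 3, Mst1-TG 4, WT 1, WT 2 or WT 3.

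Of 11 kinases, phosphatases and cyclin partners of entry, 2 rose and 2 fell, a share near the 42.3% of all genes that differed. Wee1, which holds Cdk1 inactive, averaged 32.8 CPM in Mst1-TG and 22.1 CPM in WT (0.57 ± 0.13, adjusted p 0.0036), and Chek2, a DNA damage kinase, fell to 2.76, 2.50, 3.1 and 3.39 CPM in Mst1-TG, against 5.0, 4.76, 5.47 and 7.11 CPM in WT (-0.92 ± 0.17, adjusted p 0.00066). Within the kinase complex that activates CDKs, Mnat1 rose (0.32 ± 0.09) and Ccnh fell (-0.42 ± 0.10). Of 14 genes of the anaphase-promoting complex, 1 rose and 2 fell, below the 42.3% of all genes. Cdc27 rose (0.52 ± 0.06, adjusted p 1.9e-05 in edgeR), while Anapc7 (0.16 ± 0.06) did not pass. Anapc13 (-0.44 ± 0.08) and Anapc11 (-0.14 ± 0.05) fell, the last losing its call in each fit without 1 library.

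Of 8 other G1 cyclins and kinases, 2 rose and 3 fell, against 21.2% and 21.1% of all genes. Ccng1, cyclin G1, a p53 target, had 346, 292, 289 and 314 CPM in Mst1-TG, against 445, 504, 436 and 490 CPM in WT, with no overlap (-0.60 ± 0.08, adjusted p 4.9e-05). Cdk18 (-0.64 ± 0.12) and Cdk16 (-0.34 ± 0.06), kinases of the PCTAIRE family, fell, while Cdk14 (0.37 ± 0.11) and Ccng2 (0.27 ± 0.10) rose. The call of Cdk14 was lost without Mst1-TG 4 (0.30) or WT 3 (0.34), and without Mst1-TG 4 no gene of this list rose. When scaled by library totals alone, Anapc11 turned positive at 0.14, and E2f6 (-0.16), Ccnh (-0.13), Anapc13 (-0.15) and Cdk16 (-0.05) no longer passed as lower.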

How the data were processed

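Total RNA of left ventricle (200 ng) was depleted of rRNA before preparation of directional libraries, per the labels' protocols. Reads were made with bcl2fastq 2.19.1.403 and quantified by pseudoalignment with kallisto 0.46.0, tools named in the submitters' processing notes. For genome build, annotation and strand the setting is not given in the sources used. The authors deposited 1 table of estimated counts per gene, not scaled for depth. The deposited values are whole numbers, so rounding changed nothing.

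The counts were tested with edgeR 4.0.16 under R 4.3.3: filterByExpr (minimum count 10, minimum total count 15), TMM scaling, and the robust quasi-likelihood F test with Benjamini-Hochberg adjustment over all 15314 genes tested, at a threshold of 0.05. The standard error (SE) is the log2 fold change divided by the root of F. The biological coefficient of variation was 11.4%. DESeq2 1.42.0 and limma 3.58.1 served as alternatives, with another scaling, filter, minimum effect, composition, replicate block and each library left out.

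All members are named, with values in every library for the 3 with the smallest p in each role and for 9 fixed genes, among them Ccnd1, Pcna and Mki67. Up to 4 genes of each pathway list with the smallest p are named, and other genes that passed were added after their values were seen. The members and lists were chosen with earlier results of these data known. Gene positions and transcript lengths come from GENCODE M21 (GRCm38), and promoters from RefSeq, a gene counting once whatever its number of windows. Of the members, 22 overlap a gene on the opposite strand and 11 a gene on the same strand. No 2 libraries of a group agreed within counting noise.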

Additional observations from a re-analysis of the deposited data

Results flagged for a closer look

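In each group of 4 libraries, a value was listed where its gap to the nearest other library was larger, as a share of the range of the group, than Dixon's critical value, which chance does in about 1 of 20 groups. This held for 11 of the 114 groups of values examined. In Mst1-TG 1, the highest of its group, Cdk1 stood at 5.88 CPM (3.1 to 3.39 CPM in the other Mst1-TG libraries), Top2a at 14.1 CPM (6.77 to 7.15), Birc5 at 3.04 CPM (1.68 to 1.88), Mcm4 at 14.0 CPM (11.3 to 11.6) and Rrm1 at 22.1 CPM (17.5 to 18.3). The replication genes together reached 177 CPM in that library, against 136 to 142 CPM in the other Mst1-TG libraries. In Mst1-TG 3, the lowest of its group, Cdt1 stood at 2.12 CPM (3.18 to 3.32 in the others) and Mcm2 at 8.60 CPM (10.6 to 10.8). In WT 4, the highest of its group, Ccnb2 stood at 1.97 CPM (0.803 to 0.951 in the other WT libraries) and Cdc20 at 5.79 CPM (3.1 to 3.54). The genes from S phase to mitotic entry together reached 63.6 CPM in WT 4, against 39.4 to 42.4 CPM in the other WT libraries.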

How the results depend on the processing

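With library totals as the only scaling, 7409 genes were higher and 1592 lower, 39 members rose (75% of them, against 48.4% of all genes), and Pcna (0.26) and, outside the module, Anapc11 (0.14) turned positive and passed. The median of all genes was then 0.29. Against 1.5-fold (glmTreat), a stricter test by construction, 1742 genes passed (894 higher, 848 lower). In that test 2 members rose, or 3.85% of them, below the 5.84% of all genes called higher. Leaving out 1 library at a time gave 12 to 27 members higher and 1 to 2 lower. Replicate numbers did not pair the libraries (correlations of -0.14 to 0.07), and with the replicate block 6187 genes passed and 19 members rose, Mcm3 and Prc1 being lost and E2f1 gained. Under DESeq2, limma-voom, DESeq2 size factors, no filter, a minimum count of 30 or without the most abundant genes, 20 to 23 members rose, and Ccnb1 passed under 4 of these. Cenpf fell in all 18 alternative settings. Low counts limit the module: 34 members averaged under 5 CPM in WT.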

Other observations

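Histone genes of the replication-dependent clusters, picked by symbol after the data were seen, were examined because RNA of this class is made mainly in S phase. Whether the RNA of each gene was tied to S phase in this tissue was not tested. Of 66 such genes in the count matrix, 12 were tested, with a median log2 fold change of 0.10. Of these 12, 4 rose and 2 fell, against 21.2% and 21.1% of all genes. The summed level of all 66 was 239, 240, 256 and 246 CPM in Mst1-TG, against 189, 158, 167 and 160 CPM in WT. The groups did not overlap. That gap rested on 2 genes, H1f2 (means of 116 CPM in Mst1-TG and 54.9 CPM in WT) and H2bc4 (71.2 CPM in Mst1-TG and 47.1 CPM in WT). The other 64 histone genes summed to 58.5, 55.6, 63.8 and 55.1 CPM in Mst1-TG, against 68.1, 64.0, 69.6 and 64.9 CPM in WT, with every Mst1-TG value below every WT value. Mst1-TG 1 was the lowest and WT 1 the highest library of its group in the sum of all 66, unlike in the sum of the mitotic genes, where Mst1-TG 1 and WT 4 were highest. The genes that rose were H2ac6 (1.5), H1f2 (1.08), H3c15 (1.06) and H2bc4 (0.60), and those that fell were H4c8 (-1.41) and H2bc21 (-0.84). Histone genes have near-identical copies, so the division of reads among them is uncertain.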
